A study of Arabidopsis thaliana with 12 samples.

Results

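The MYB-bHLH-WD40 activators of anthocyanin synthesis are 8 genes, taken by their identifiers from the 32833 genes of the deposited table: the MYB genes PAP1, PAP2, MYB113 and MYB114, the bHLH genes TT8, GL3 and EGL3, and the WD40-repeat gene TTG1. All 8 had a row in the table, and 7 averaged at least 1 FPKM across the 12 libraries and were tested (FPKM, fragments per kilobase of transcript and 1e06 fragments). MYB114 averaged less and is described by its values. The libraries were poly-A RNA of leaves of 21 d old Arabidopsis thaliana, grown on soil with 10 h of light a day and moved from darkness as the night ended into 500 µmol photons m-2 s-1. There were 4 groups of 3 biological replicates, tpt-2 after 18 h, Col-0 after 18 h, tpt-2 after 9 h and Col-0 after 9 h in that light. Col-0 is the Columbia reference accession, and tpt-2 is a mutant allele of TPT, the chloroplast triose phosphate/phosphate translocator, in plants otherwise grown and lit alike. All 12 libraries came from after the shift to strong light, and 18 h runs past the 10 h day of the growth conditions, so that hours of light and hour of the day cannot be told apart.

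In Arabidopsis a MYB protein, a bHLH protein and TTG1 assemble into a complex that switches on the late genes of anthocyanin synthesis. The MYB member largely sets which genes the complex acts on, the bHLH member bridges MYB and TTG1, and TTG1 is a scaffold shared with complexes that control trichomes, root hairs and the seed coat. In leaves, PAP1 is known as the main MYB of light- and sugar-induced anthocyanin, and TT8 is itself a target of the complex, so that its transcript follows the activity of the complex in a positive loop.

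TPT, the gene named by the mutant label, had 2.92 ± 0.206 FPKM in tpt-2 and 436 ± 29.8 FPKM in Col-0 at 18 h, and 3.10 ± 0.678 FPKM in tpt-2 and 393 ± 61.0 FPKM in Col-0 at 9 h (SD, n = 3 each). Replicate 1 of Col-0 at 18 h was the deepest library, with a recovered 25.6 M fragments on genes (M, 1e06), and the other 11 held 12.3 to 14.3 M. The 4 leaf marker genes summed to 27626 to 31775.5 FPKM in tpt-2 and 31523 to 33517 FPKM in Col-0 at 18 h. At 9 h they summed to 24883 to 28251 FPKM in tpt-2 and 23578 to 25427 FPKM in Col-0. Of the 4 root markers, PRP3, COBL9 and EXP7 had at most 0.0958 FPKM, while the summed list, nearly all PYK10, ranged over 224 to 350.4 FPKM in tpt-2 and 272 to 323 FPKM in Col-0 at 18 h, and 172 to 271 FPKM in tpt-2 and 148 to 196 FPKM in Col-0 at 9 h. Seed and flower markers summed to at most 0.653 FPKM in 11 libraries and to 11.3 FPKM in Col-0 replicate 2 at 18 h. Values without that library are given with each call it changes. Of the tpt-2 libraries at 18 h, replicate 3 was the lowest for 6 of the 8 genes (PAP1, PAP2, MYB113, MYB114, TT8 and GL3), and replicate 1 was the highest for 6 of the 8. Of the Col-0 libraries at 18 h, replicate 3 was the highest for 7 of the 8 and the lowest for none.

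All 8 genes are protein-coding, and positions are those of the RefSeq annotation of TAIR10.1. PAP1 (AT1G56650) lies on chromosome 1 at 21233555 to 21235292 on the minus strand. MYB113 (AT1G66370, 24753589 to 24754761), MYB114 (AT1G66380, 24757298 to 24758953) and PAP2 (AT1G66390, 24763941 to 24765541) stand in a row on the plus strand of the same chromosome, within 11.95 kb and with no other annotated gene between them. Their coding sequences were 84.3% (PAP2), 79.3% (MYB113) and 87.6% (MYB114) identical to that of PAP1 over the aligned bases. The annotated coding length was 747 bases for PAP1, 750 bases for PAP2 and 741 bases for MYB113, but at most 420 bases for MYB114, which is known to encode a truncated protein in Columbia. Among the 50-base windows of the PAP2 transcript, 3.99% occurred in the longest MYB114 transcript, and no other pair of the MYB genes shared a window. PAP2 and MYB114 could exchange fragments in counting, a small part of those of PAP2. For MYB114 the part could be large, since it had 28, 11 and 12 fragments in Col-0 at 18 h, against 792, 454 and 516 for PAP2. The extent was not tested. TT8 (AT4G09820) lies on chromosome 4 at 6181881 to 6186523 (plus), GL3 (AT5G41315) on chromosome 5 at 16529090 to 16533287 (plus), EGL3 (AT1G63650) on chromosome 1 at 23599413 to 23603164 (plus) and TTG1 (AT5G24520) on chromosome 5 at 8370317 to 8372847 (minus).

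The 250 bases before the annotated start of the 4 MYB genes and of TT8 are shown because these genes hold the largest and the least certain differences of the set. Capitals mark 2 motifs searched on both strands, the G-box CACGTG and the MYB-recognition letters ANCNNCC. Sequences are from the RefSeq TAIR10.1 genome, 5′ to 3′ on the strand of the gene, for PAP1 chr1:21235293-21235542 (minus), PAP2 chr1:24763691-24763940 (plus), MYB113 chr1:24753339-24753588 (plus), MYB114 chr1:24757048-24757297 (plus) and TT8 chr4:6181631-6181880 (plus).
PAP1: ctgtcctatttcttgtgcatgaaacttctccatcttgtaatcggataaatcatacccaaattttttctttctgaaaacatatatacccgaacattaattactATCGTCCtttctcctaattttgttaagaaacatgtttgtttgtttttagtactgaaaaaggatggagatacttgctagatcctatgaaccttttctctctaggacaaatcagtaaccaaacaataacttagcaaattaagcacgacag
PAP2: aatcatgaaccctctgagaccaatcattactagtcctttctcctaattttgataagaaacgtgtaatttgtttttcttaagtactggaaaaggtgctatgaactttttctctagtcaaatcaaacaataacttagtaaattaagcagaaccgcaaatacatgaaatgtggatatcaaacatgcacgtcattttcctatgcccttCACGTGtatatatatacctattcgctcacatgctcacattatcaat
MYB113: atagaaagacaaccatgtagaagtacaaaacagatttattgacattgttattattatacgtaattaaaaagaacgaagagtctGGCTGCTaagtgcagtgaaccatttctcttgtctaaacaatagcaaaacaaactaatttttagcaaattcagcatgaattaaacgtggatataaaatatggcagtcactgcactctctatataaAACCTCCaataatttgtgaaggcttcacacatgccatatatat
MYB114: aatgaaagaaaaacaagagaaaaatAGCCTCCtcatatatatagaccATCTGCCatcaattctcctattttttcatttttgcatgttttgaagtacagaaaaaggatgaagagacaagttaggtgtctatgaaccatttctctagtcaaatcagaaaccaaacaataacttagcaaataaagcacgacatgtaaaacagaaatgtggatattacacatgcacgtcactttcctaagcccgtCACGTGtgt
TT8: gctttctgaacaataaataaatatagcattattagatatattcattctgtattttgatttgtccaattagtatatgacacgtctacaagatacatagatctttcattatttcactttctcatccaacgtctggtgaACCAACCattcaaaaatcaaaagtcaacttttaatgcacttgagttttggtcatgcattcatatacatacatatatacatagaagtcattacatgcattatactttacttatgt
A G-box was found once each in the windows of PAP2 (46 bases before the start) and MYB114 (9 bases before the start), and in none of the other 6 genes. Over all 27443 nuclear protein-coding genes, 6.49% of windows of this length held one. The letters ANCNNCC were present in the windows of 5 of the 8 genes (PAP1, MYB113, MYB114, TT8 and GL3), against 48.8% of all windows. PAP1 and MYB114 shared a run of 23 identical bases, and PAP1 and PAP2 a run of 19. Such matches describe the letters only.

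At 9 h, 3 of the activator genes stood far below Col-0 in tpt-2, PAP1 at 16.6%, TT8 at 6.99% and PAP2 at 5.68% of the Col-0 mean. EGL3 was at 62.2% of Col-0, and TTG1 ran the other way, at 145% of Col-0. Of the 7 genes tested, 4 were called lower (PAP1, PAP2, TT8 and EGL3) and 1 higher (TTG1), where 8.72% of all 17585 genes tested were called lower and 13.6% higher, or 22.3% in either direction. At 18 h, 2 of 7 were called, PAP2 and TT8, both lower, where 0.881% of all genes were called lower and 2.88% in either direction. A call is a limma adjusted p under 0.05 on log2(FPKM + 1), with Benjamini-Hochberg adjustment over all genes tested. Counted by non-overlap of the 3 values per group, 3 of 7 lay lower in tpt-2 at 18 h (6.86% of all genes, 29.0% in either direction). At 9 h, 5 lay lower (13.9%) and 1 higher (23.9%), where 37.8% of all genes did not overlap in either direction. In bulk leaf RNA, fewer cells that express a gene and less RNA per cell cannot be told apart.

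**Figure D1:**
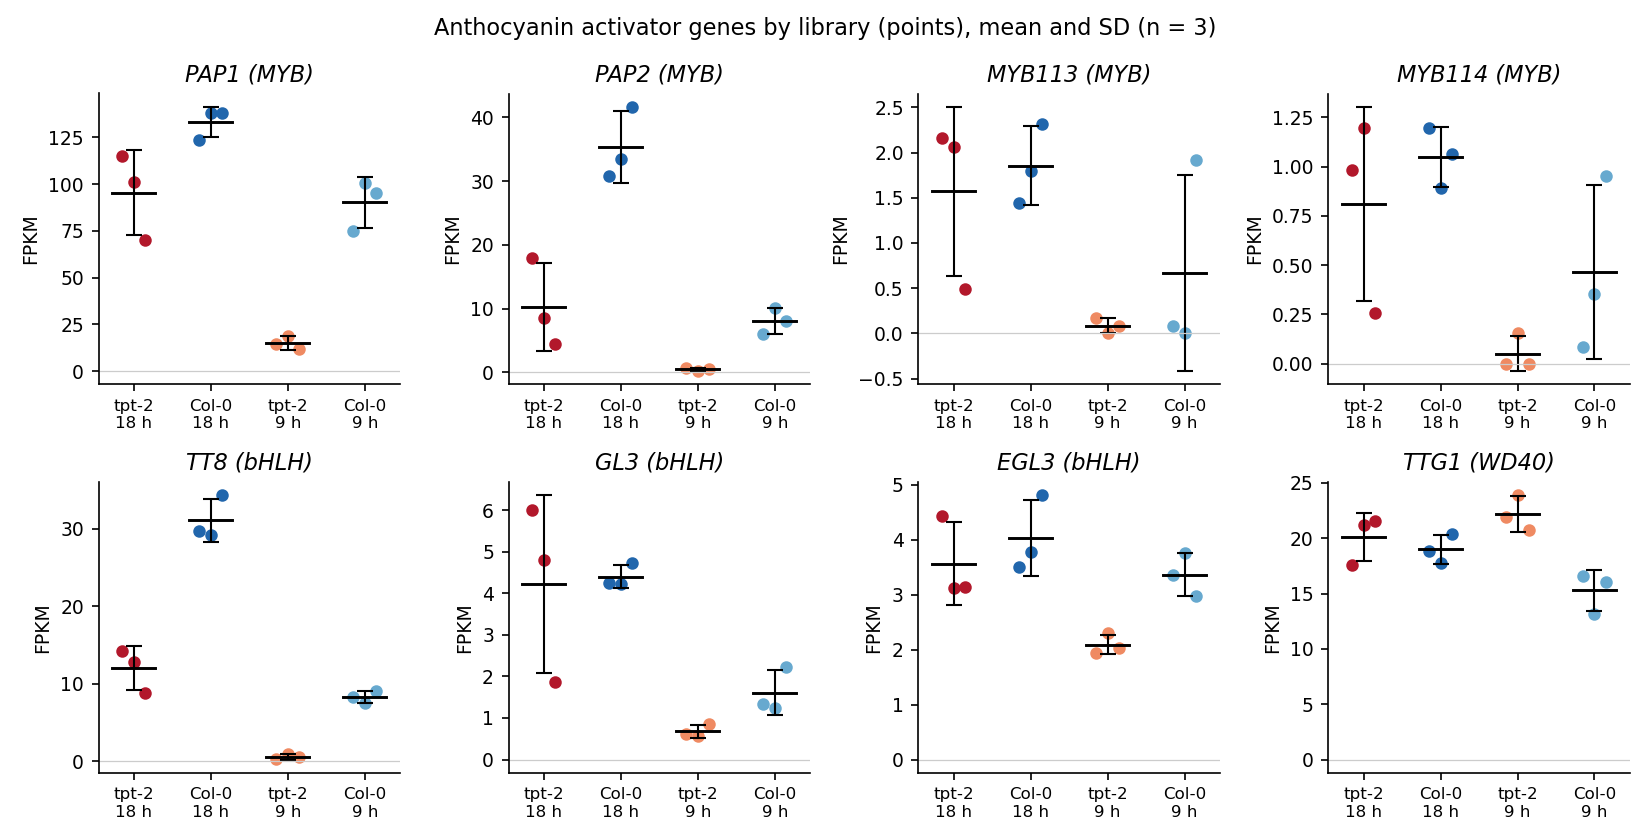
FPKM (vertical axis, 1 scale per gene) of the 8 genes in each of the 12 libraries; points are libraries, horizontal bars the mean and whiskers the SD of 3 replicates. PAP1, PAP2 and TT8 are lowest in the 3 tpt-2 libraries at 9 h and highest in the 3 Col-0 libraries at 18 h, while TTG1 stays between 13.2 and 23.9 FPKM.

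PAP1 was the most abundant of the 8 transcripts per length in all groups except tpt-2 at 9 h. At 18 h the tpt-2 libraries had 115, 101 and 70.2 FPKM, against 124, 138 and 138 FPKM in Col-0. At 9 h the tpt-2 libraries had 14.4, 18.8 and 11.9 FPKM, against 75.0, 101 and 95.0 FPKM in Col-0. The 3 tpt-2 values lay below the 3 Col-0 values at both times, and the tpt-2 range at 18 h (70.2 to 115) overlapped that of Col-0 at 9 h (75.0 to 101). The log2 fold change was -0.51 at 18 h (95% interval -0.91 to -0.10, limma adjusted p 0.155) and -2.52 at 9 h (-2.93 to -2.11, limma adjusted p 1.12e-05). The difference between these effects was 2.02 (1.44 to 2.59, limma adjusted p 0.00341), and it passed in all 12 fits that each left out 1 library. An interaction was called for 4.78% of all genes tested, or for 2.43% in the positive direction.

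PAP2, the closest relative of PAP1 in known function, was expressed at a lower level and differed more in proportion. The tpt-2 libraries at 18 h had 17.9, 8.55 and 4.43 FPKM, against 30.8, 33.5 and 41.7 FPKM in Col-0. At 9 h the tpt-2 libraries had 0.629, 0.210 and 0.531 FPKM, against 6.01, 10.0 and 8.07 FPKM in Col-0. The 9 h values of tpt-2 rest on 8, 3 and 7 fragments, and at both times the groups did not overlap. The log2 fold change of PAP2 was -1.86 at 18 h (-2.62 to -1.10, limma adjusted p 0.0183) and -2.62 at 9 h (-3.37 to -1.86, limma adjusted p 0.000477). Leaving out tpt-2 replicate 2 of that time ended the 18 h call (limma adjusted p 0.0660), as did leaving out replicate 2 (0.0701) or 3 (0.0948) of Col-0. The interaction of PAP2 did not pass (0.76, -0.31 to 1.83, limma adjusted p 0.412), and with a pseudocount of 0.1 it was 1.95 (limma adjusted p 0.0952). The value at 9 h was -3.93 with that pseudocount, so the standard scale shortens the distance of this low transcript.

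MYB113 and MYB114, MYB genes of the same subgroup that can activate the pathway when overexpressed, were near the limit of detection at 9 h. As stated above, MYB114 is known to encode a truncated protein in Columbia. MYB113 had 2.16, 2.06 and 0.495 FPKM in tpt-2 and 1.45, 1.80 and 2.31 FPKM in Col-0 at 18 h. Its 9 h libraries held 2, 0 and 1 fragments in tpt-2 and 1, 0 and 25 fragments in Col-0, so that Col-0 replicate 3 alone carries the Col-0 level. The pooled fragment ratio of tpt-2 to Col-0 at 9 h was 0.112 (exact 95% interval 0.0218 to 0.367, counting error only). The test called MYB113 at neither time, with -0.22 at 18 h on the log2 scale (limma adjusted p 0.785) and -0.44 at 9 h (limma adjusted p 0.456), and without Col-0 replicate 3 at 9 h the 9 h value was 0.054. The 18 h value was 0.14 once tpt-2 replicate 3 of that time was left out.

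MYB114 had 0.983, 1.20 and 0.256 FPKM in tpt-2 and 1.20, 0.892 and 1.06 FPKM in Col-0 at 18 h. At 9 h its fragments numbered 0, 2 and 0 in tpt-2, against 1, 4 and 12 in Col-0, a ratio of 0.115 (exact 95% interval 0.0128 to 0.483, counting error only). The groups overlapped at both times, and sequence shared with PAP2 could weigh on all these MYB114 values. In a fit with no filter on low values MYB114 was called at neither time (limma adjusted p 0.680 at 18 h and 0.251 at 9 h). Among the 12 libraries, Col-0 replicate 3 was the highest of the 3 Col-0 libraries at 9 h for both MYB113 and MYB114.

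The 4 MYB transcripts summed to 108 ± 30.5 FPKM in tpt-2 and 171 ± 13.1 FPKM in Col-0 at 18 h, and to 15.6 ± 3.37 FPKM in tpt-2 and 99.4 ± 16.0 FPKM in Col-0 at 9 h (SD, n = 3 each). PAP1 made up most of that sum in every library. The PAP1 share was 84.5% to 93.1% in tpt-2 and 75.4% to 79.2% in Col-0 at 18 h, and 94.7% to 98.1% in tpt-2 and 89.7% to 92.4% in Col-0 at 9 h. The PAP2 share was 5.87% to 13.2% in tpt-2 and 19.2% to 22.8% in Col-0 at 18 h, and 1.09% to 4.26% in tpt-2 and 7.41% to 9.02% in Col-0 at 9 h. Within each time the shares of the 2 genotypes did not overlap for either gene. Since PAP1 and PAP2 made up nearly all of the sum, their shares largely fix each other and are not separate results. MYB113 and MYB114 each stayed at or below 1.83% of the sum.

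Of the bHLH genes, TT8 carried the large difference. It had 14.3, 12.9 and 8.85 FPKM in tpt-2 and 29.7, 29.2 and 34.3 FPKM in Col-0 at 18 h. The 9 h values were 0.275, 0.943 and 0.531 FPKM in tpt-2 (7, 27 and 14 fragments), against 8.35, 7.55 and 9.11 FPKM in Col-0. The groups were apart at both times, and the tpt-2 range at 18 h (8.85 to 14.3) reached down into that of Col-0 at 9 h (7.55 to 9.11). The log2 fold change of TT8 was -1.32 at 18 h (-1.71 to -0.94, limma adjusted p 0.00266) and -2.58 at 9 h (-2.96 to -2.19, limma adjusted p 6.15e-06). Each of these calls held in all 12 fits without 1 library. Its interaction was 1.25 (0.71 to 1.80, limma adjusted p 0.0204), and it missed the threshold when tpt-2 replicate 1 (0.0540) or one of Col-0 replicates 1 (0.0548) and 2 (0.0585) of the 18 h libraries was left out. With a pseudocount of 0.1 the interaction was 2.36 (limma adjusted p 0.0126).

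GL3, a bHLH gene best known for starting trichomes, had 6.01, 4.80 and 1.86 FPKM in tpt-2 and 4.25, 4.22 and 4.72 FPKM in Col-0 at 18 h. Its 9 h values were 0.607, 0.568 and 0.864 FPKM in tpt-2, against 1.33, 1.25 and 2.23 FPKM in Col-0. The groups overlapped at 18 h and were apart at 9 h, where GL3 did not pass the test (log2 fold change -0.62, -1.21 to -0.02, limma adjusted p 0.129). With tpt-2 replicate 3 of 18 h left out, the SE of GL3 was 0.162 in place of 0.273, and the same 9 h value passed (limma adjusted p 0.0199). The 18 h value was -0.14 (-0.74 to 0.45, limma adjusted p 0.800), and 0.24 without that library.

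EGL3, a close relative of GL3 that acts in both trichomes and anthocyanin, moved less. It had 4.43, 3.11 and 3.14 FPKM in tpt-2 and 3.50, 3.77 and 4.81 FPKM in Col-0 at 18 h. EGL3 at 9 h stood at 1.94, 2.29 and 2.04 FPKM in tpt-2, all below the 3.36, 3.75 and 2.98 FPKM in Col-0. On the log2 scale EGL3 differed by -0.14 at 18 h (-0.46 to 0.17, limma adjusted p 0.605) and -0.50 at 9 h (-0.81 to -0.18, limma adjusted p 0.0294). The 9 h call of EGL3 was lost without Col-0 replicate 1 (0.0649) or replicate 2 (0.0962), or without tpt-2 replicate 1 (0.0921), 2 (0.0542) or 3 (0.0618) at 9 h. The coding sequences of GL3 and EGL3 were 80.5% identical and their transcripts shared no 50-base window.

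The order of the bHLH transcripts per length differed between the groups. TT8 made up 57.8% to 63.9% of the bHLH sum in tpt-2 and 78.3% to 79.3% in Col-0 at 18 h, and 9.73% to 24.8% in tpt-2 and 60.1% to 64.0% in Col-0 at 9 h. EGL3 was the largest part in tpt-2 at 9 h, with 59.4% to 68.8%, against 20.8% to 29.9% in Col-0 at 9 h. The TT8 to EGL3 ratio of FPKM had a median of 3.22 in tpt-2 and 7.75 in Col-0 at 18 h, and of 0.260 in tpt-2 and 2.48 in Col-0 at 9 h.

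**Figure D2:**
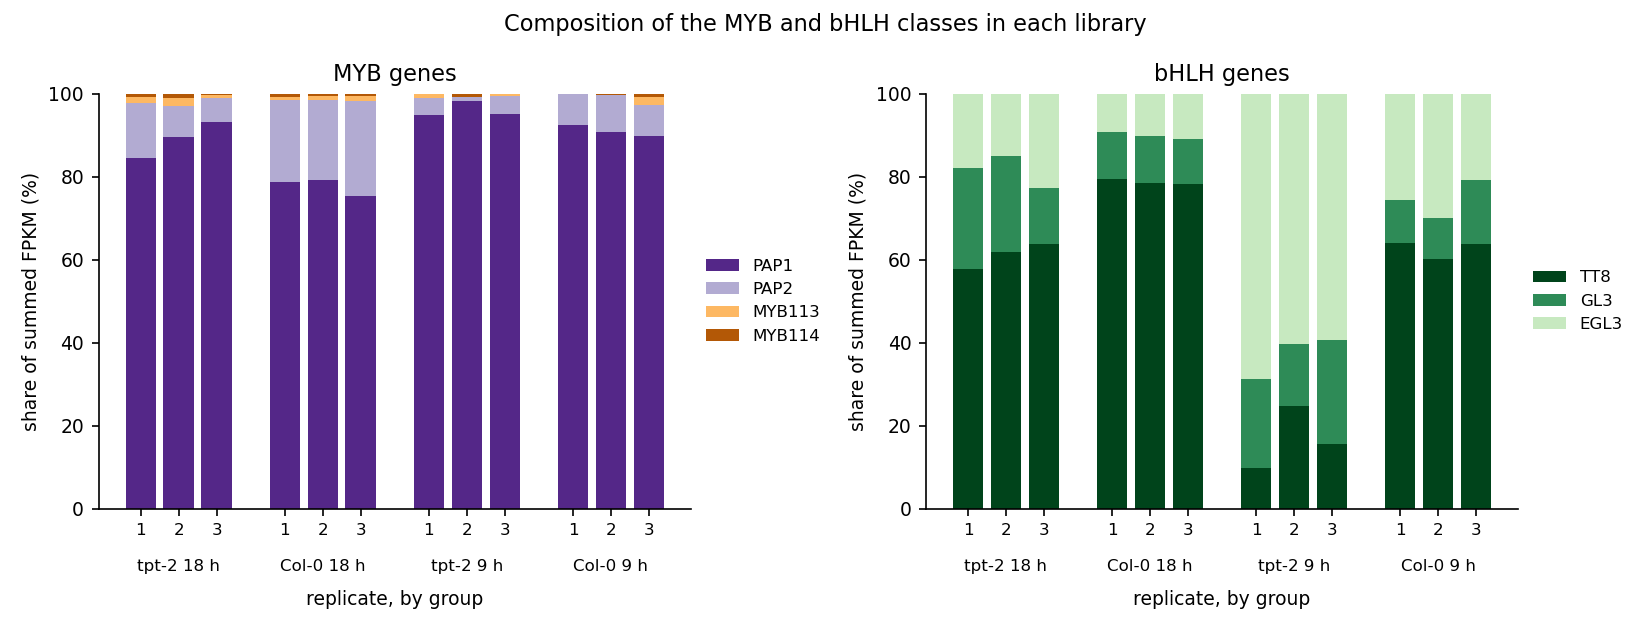
Share of the summed FPKM (vertical axis, %) taken by each of the 4 MYB genes (left) and 3 bHLH genes (right) in each of the 12 libraries, grouped by genotype and time. PAP1 fills 75.4% to 98.1% of the MYB bar in every library, and EGL3 exceeds TT8 in the 3 tpt-2 libraries at 9 h.

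TTG1, the scaffold, was the steadiest of the 8 transcripts. It had 17.6, 21.2 and 21.5 FPKM in tpt-2 and 18.8, 17.8 and 20.4 FPKM in Col-0 at 18 h. The 9 h libraries of tpt-2 had 21.9, 23.9 and 20.7 FPKM, all above the 16.6, 13.2 and 16.0 FPKM in Col-0. This was 0.51 on the log2 scale (0.28 to 0.75, limma adjusted p 0.00545), which held in all 12 fits without 1 library. At 18 h it was 0.08 (-0.16 to 0.31, limma adjusted p 0.723), and its sign turned under median-ratio scaling (-0.024) and quantile normalization (-0.032). The interaction was -0.44 (-0.77 to -0.11) and did not pass (limma adjusted p 0.117). Set against TTG1 in the same library, the MYB sum had a median ratio of 5.32 in tpt-2 and 8.99 in Col-0 at 18 h, and of 0.690 in tpt-2 and 6.60 in Col-0 at 9 h.

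**Figure D3:**
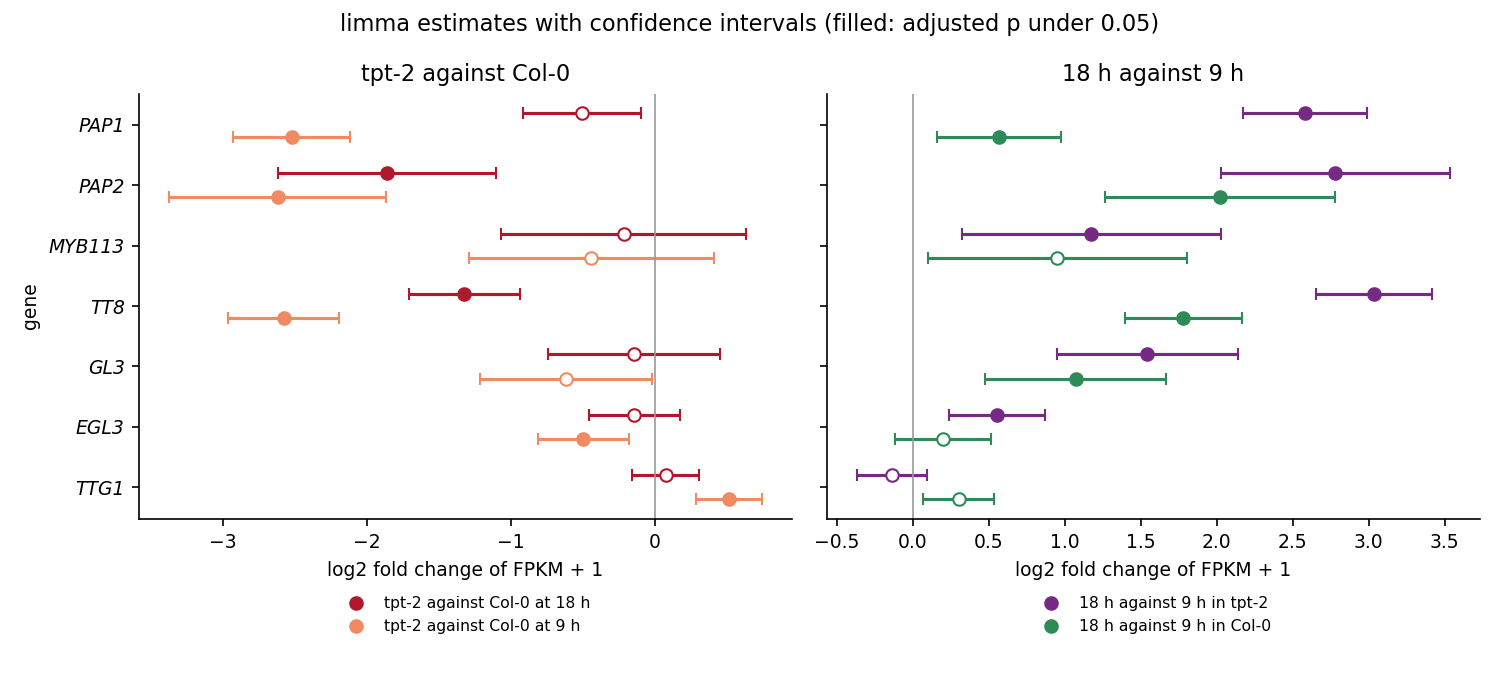
log2 fold changes of FPKM + 1 (horizontal axis) with 95% limma intervals for the 7 genes tested, for tpt-2 against Col-0 (left) and for 18 h against 9 h (right); filled points passed an adjusted p of 0.05. PAP1 differs by -0.51 at 18 h and -2.52 at 9 h between the genotypes, and TTG1 is the gene called higher at 9 h (0.51).

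The same 12 libraries also give the comparison of 18 h with 9 h, which shares its groups with the genotype comparison and is given beside it. In tpt-2, 6 of 7 genes were higher at 18 h than at 9 h (all but TTG1), where 12.1% of all genes were called higher and 23.4% in either direction. The same 6 genes had no overlap between the times (18.8% of all genes higher, 38.0% in either direction). MYB113, among these 6, averaged 1.04 FPKM over the 12 libraries and passed the filter only through its 18 h values. Its 9 h means were 0.0826 FPKM in tpt-2 and 0.666 FPKM in Col-0, so the filter favored this direction for MYB113. In Col-0, 4 of 7 were higher (PAP1, PAP2, TT8 and GL3), where 13.1% were called higher and 28.7% in either direction. In Col-0 these 4 and TTG1 had no overlap between the times (20.1% higher, 43.6% in either direction). The means at 18 h were 22.5-fold (PAP2), 20.6-fold (TT8), 6.35-fold (PAP1), 6.22-fold (GL3) and 1.70-fold (EGL3) the means at 9 h in tpt-2. In Col-0 the same ratios were 4.40-fold for PAP2, 3.73-fold for TT8, 1.48-fold for PAP1, 2.74-fold for GL3 and 1.20-fold for EGL3.

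TT8 had a log2 fold change with time of 3.03 in tpt-2 (SE 0.176, limma adjusted p 5.01e-07) and 1.78 in Col-0 (SE 0.176, limma adjusted p 2.68e-05). For PAP2 the values were 2.78 in tpt-2 (SE 0.346, limma adjusted p 0.000135) and 2.02 in Col-0 (SE 0.346, limma adjusted p 0.00110). PAP1 changed by 2.58 in tpt-2 (SE 0.187, limma adjusted p 2.50e-06) and by 0.57 in Col-0 (SE 0.187, limma adjusted p 0.0403). The Col-0 call of PAP1 was lost without replicate 1 (0.144) or 3 (0.0551) of Col-0 at 9 h, replicate 1 (0.0657), 2 (0.108) or 3 (0.103) of Col-0 at 18 h, or tpt-2 replicate 1 at 9 h (0.0536), and with no filter on low values (0.0676). Whether a gene rose differently with time in the 2 genotypes is the interaction given above, which passed for PAP1 and TT8.

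GL3 was higher at 18 h in both genotypes (1.54 in tpt-2, limma adjusted p 0.00170, and 1.07 in Col-0, limma adjusted p 0.0117), and its interaction of 0.47 did not pass (-0.37 to 1.32, limma adjusted p 0.531). EGL3 was called in tpt-2 (0.55, limma adjusted p 0.0167) and not in Col-0 (0.20, limma adjusted p 0.346), with an interaction of 0.35 (-0.09 to 0.80, limma adjusted p 0.358). The tpt-2 call of EGL3 was lost without tpt-2 replicate 1 at 18 h (0.0715) or at 9 h (0.0548). MYB113 was called in tpt-2 (1.17, limma adjusted p 0.0482) and not in Col-0 (0.95, limma adjusted p 0.0911). The tpt-2 call of MYB113 rests on 3 fragments over the 9 h libraries, and it was lost in 8 of the 12 fits without 1 library (limma adjusted p up to 0.158), those without any tpt-2 library at 9 h, any Col-0 library at 18 h, or tpt-2 replicate 1 or 2 at 18 h. It was also lost with no filter on low values (0.0697), with quantile-normalized values (0.0613) and with median-ratio scaling (0.0533). The fragments of MYB113 in tpt-2 numbered 56 at 18 h against 3 at 9 h, a depth-adjusted ratio of 19.7 (exact 95% interval 6.39 to 98.2, counting error only), and those of MYB114 28 at 18 h against 2 at 9 h, a ratio of 14.7 (3.72 to 128). Without Col-0 replicate 3 at 9 h MYB113 was called in Col-0 too (1.44, limma adjusted p 0.00500). TTG1 was called in neither genotype (-0.14 in tpt-2, limma adjusted p 0.392, and 0.30 in Col-0, limma adjusted p 0.0521). Without tpt-2 replicate 1 at 18 h (limma adjusted p 0.0397) or Col-0 replicate 1 at 9 h (0.0460), TTG1 passed in Col-0. It also passed with quantile-normalized values (0.0338), with median-ratio scaling (0.0389) and with a minimum of 5 FPKM (0.0424).

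Genes of the pathway and genes around the complex were set beside the activators. The list named late anthocyanin holds 13 genes, mostly for the last enzymes of the pathway and for vacuolar loading. TT7 and the sinapate glucosyltransferase gene UGT84A2 were placed in it, although neither encodes one of those last enzymes. At 18 h, 12 of the 13 passed the threshold as lower in tpt-2 (median -1.12 on the log2 scale). All 13 did so at 9 h (median -3.42). The activators had medians of -0.22 at 18 h and -0.62 at 9 h over the 7 tested, and all genes tested had medians of 0.09 at 18 h and 0.07 at 9 h. The added 1 FPKM shortens the changes of low activators more than those of abundant genes, so these medians are not directly comparable. As log2 ratios of the group means, the 9 h values were -2.59 (PAP1), -4.14 (PAP2), -3.01 (MYB113), -3.84 (TT8), -1.24 (GL3), -0.69 (EGL3) and 0.54 (TTG1). The MYB113 ratio rests on Col-0 replicate 3, with 25 fragments against 1 and 0 in replicates 1 and 2. Without that library the fitted 9 h value of MYB113 was 0.054. TT7, the flavonoid 3'-hydroxylase gene, had 120.5 ± 18.6 FPKM in tpt-2 and 393 ± 22.6 FPKM in Col-0 at 18 h (-1.71, limma adjusted p 0.00778), and 2.40 ± 1.68 FPKM in tpt-2 and 52.6 ± 13.0 FPKM in Col-0 at 9 h (-4.06, limma adjusted p 4.69e-06). At 9 h the reductase gene DFR had 7.92 ± 3.51 FPKM in tpt-2 and 180.8 ± 17.6 FPKM in Col-0, and the dioxygenase gene LDOX 10.3 ± 3.22 FPKM in tpt-2 and 188 ± 16.0 FPKM in Col-0. The count of late genes at 18 h was 7 without Col-0 replicate 2 and 6 without Col-0 replicate 3 of that time.

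Of 7 tested early flavonoid genes, which include the flavonol MYB genes that act without the complex, 3 were called lower at 18 h (median -1.05) and 7 at 9 h (median -1.28). Among all genes tested, the shares called lower were 0.881% at 18 h and 8.72% at 9 h. CHI, chalcone isomerase, had 139 ± 20.8 FPKM in tpt-2 and 322 ± 36.9 FPKM in Col-0 at 18 h (-1.20, limma adjusted p 0.00855), and 36.5 ± 11.7 FPKM in tpt-2 and 105 ± 17.2 FPKM in Col-0 at 9 h (-1.53, limma adjusted p 0.000366). Its 18 h call was lost without Col-0 replicate 2 (0.0502) or 3 (0.0516). Chalcone synthase, CHS, at 9 h had 154 ± 75.1 FPKM in tpt-2 and 782 ± 133 FPKM in Col-0, and CHIL, which aids it, 34.1 ± 17.1 FPKM in tpt-2 and 144 ± 31.8 FPKM in Col-0. In the fit of only the groups compared, 7 early genes were called at 18 h and 3 at 9 h. At 9 h 4 were called without tpt-2 replicate 1, and at 18 h 1 without Col-0 replicate 2 or 3. F3H, the flavanone hydroxylase gene, was not tested, since it was listed at 0 to 0.381 FPKM. In Col-0 at 18 h CHS and DFR of the same pathway had means of 2425 and 614 FPKM. Whether the F3H row reflects its expression or its counting was not tested.

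TTG1 and the bHLH proteins also act in trichomes and the seed coat. Of 11 listed genes of those branches 5 were tested and the other 6 averaged under 1 FPKM. Among the 5, which include the trichome MYB genes GL1 and MYB23, 1 was called at each time, TTG2, a WRKY gene of trichome and seed coat. In either direction, 2.88% of all genes tested were called at 18 h and 22.3% at 9 h. TTG2 had 12.5 ± 1.45 FPKM in tpt-2 and 26.0 ± 2.59 FPKM in Col-0 at 18 h (-0.9997, limma adjusted p 0.000337), and 2.94 ± 0.0859 FPKM in tpt-2 and 8.78 ± 0.241 FPKM in Col-0 at 9 h (-1.31, limma adjusted p 1.12e-05). A second gene of the list was called at 9 h without tpt-2 replicate 3 at 9 h, and without tpt-2 replicate 1 or 2 at 18 h.

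The inhibitors of the complex moved in both directions. Of 13 tested, 1 was called higher and 1 lower at 18 h (median 0.19), and 3 higher and 1 lower at 9 h (median 0.0046). The 9 h counts are not far from the shares of all genes tested, 13.6% higher and 8.72% lower. At 18 h, 2.88% of all genes were called in either direction. At 18 h CPC, a small MYB protein that competes for the bHLH partner, had 6.79 ± 1.35 FPKM in tpt-2 and 25.4 ± 2.52 FPKM in Col-0 (-1.77, limma adjusted p 0.00116). At 9 h its relative CPL3 had 2.93 ± 0.806 FPKM in tpt-2 and 7.08 ± 1.09 FPKM in Col-0 (-1.05, limma adjusted p 0.00136), while another, ETC2, had 8.82 ± 0.547 FPKM in tpt-2 and 3.68 ± 0.899 FPKM in Col-0 (1.08, limma adjusted p 0.0122). HAT1, a homeodomain gene, had 8.58 ± 1.32 FPKM in tpt-2 and 3.60 ± 1.11 FPKM in Col-0 at 9 h (1.08, limma adjusted p 0.00204). At 18 h, 1 inhibitor was called when replicate 2 or 3 of either genotype at that time was left out.

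Of 15 light-control genes, none was called lower, and 2 at 18 h and 4 at 9 h were called higher. Among all genes tested, 13.6% were called higher at 9 h, and 2.88% were called in either direction at 18 h. The photoreceptor gene CRY1 at 9 h had 32.6 ± 4.12 FPKM in tpt-2 and 19.5 ± 1.50 FPKM in Col-0 (0.71, limma adjusted p 0.000560). PIF4, a bHLH gene of growth control, had 3.80 ± 1.41 FPKM in tpt-2 and 0.864 ± 0.722 FPKM in Col-0 at 18 h (1.39, limma adjusted p 0.0297), and 50.3 ± 8.41 FPKM in tpt-2 and 25.9 ± 5.44 FPKM in Col-0 at 9 h (0.94, limma adjusted p 0.0383). BBX21, a positive light regulator, had 14.6 ± 1.64 FPKM in tpt-2 and 10.8 ± 2.11 FPKM in Col-0 at 9 h (0.41, limma adjusted p 0.0297). HY5, a direct activator of PAP1 in known biology, passed at neither time, with -0.59 at 18 h (limma adjusted p 0.0596) and -0.089 at 9 h (limma adjusted p 0.715). PIF4 lost its call in 4 of 12 fits without 1 library at 18 h (limma adjusted p up to 0.114; replicate 2 or 3 of either genotype at 18 h) and in 5 of 12 at 9 h (up to 0.125; replicate 2 or 3 of Col-0 or 1 or 2 of tpt-2 at 9 h, or Col-0 replicate 2 at 18 h). PIF4 was also not called with no filter on low values (0.0570 at 18 h and 0.0681 at 9 h), in the fit of only the groups compared at 18 h (0.0702), and at 9 h with median-ratio scaling (0.0550) or a pseudocount of 0.1 (0.218). With that pseudocount its 18 h value was 2.32 (limma adjusted p 0.0417). BBX21 lost its call in 4 of 12 (up to 0.119), with the same 4 of the 9 h libraries, and with median-ratio scaling (0.0717), quantile-normalized values (0.0804) or only the groups compared (0.0925). Their count was 0 at 18 h when replicate 2 or 3 of either genotype at that time was left out. At 9 h it was 1 under median-ratio scaling, 1 without tpt-2 replicate 2 or without replicate 3 of Col-0, and 2 without tpt-2 replicate 1.

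**Figure D4:**
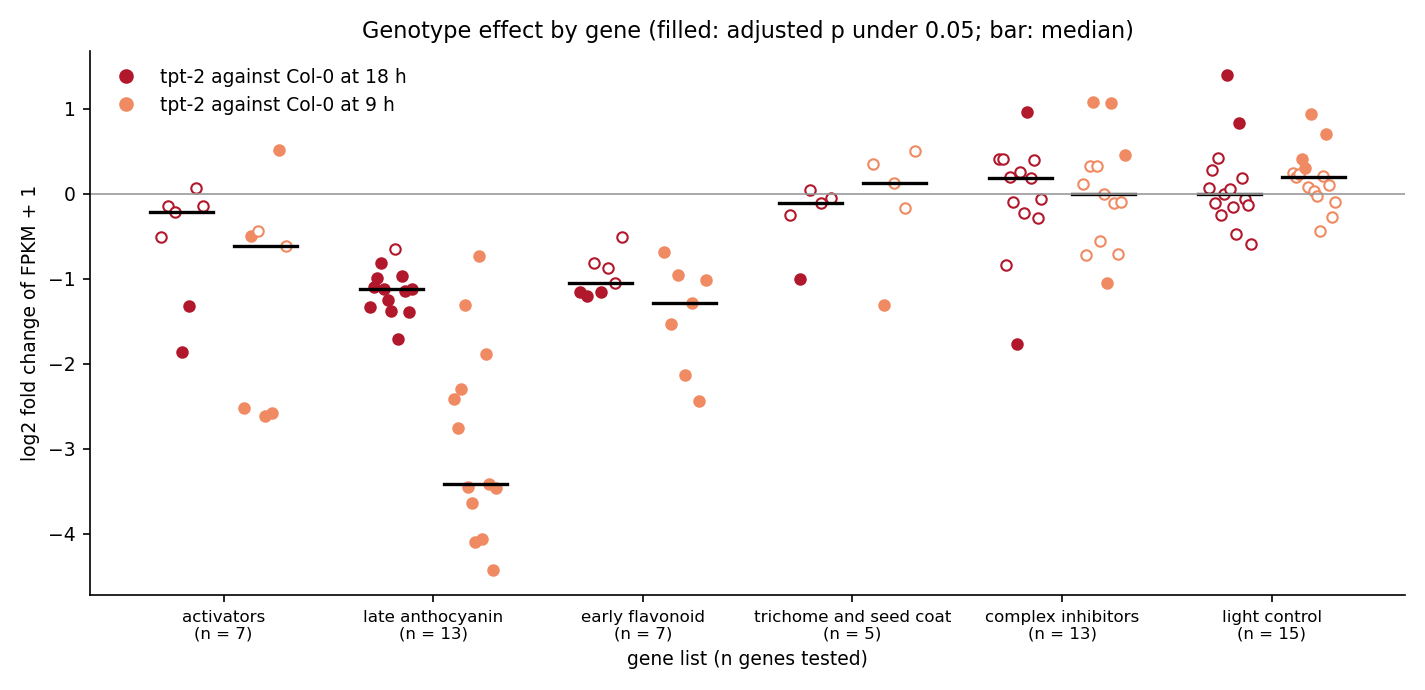
log2 fold change of FPKM + 1 between tpt-2 and Col-0 (vertical axis) for each tested gene of 6 lists, at 18 h (dark) and 9 h (light); filled points passed an adjusted p of 0.05 and bars are medians. The 13 late anthocyanin genes lie below 0 at both times, with medians of -1.12 at 18 h and -3.42 at 9 h, while inhibitors and light-control genes lie on both sides of 0.

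For each tested activator, the 3 genes with the most similar profile were taken by Pearson's r of log2(FPKM + 1) over the 12 libraries. These share the 4 groups, so that r reflects group levels as well as single libraries. TT8 had the closest partners, the anthocyanin acyltransferase genes 3AT2, 3AT1 and SCPL10, each with r of 0.993 or 0.994. Nearest to PAP1 were TT19 (0.980), the glutathione transferase of anthocyanin loading, the malonyltransferase gene 5MAT (0.979) and HOS3-1 (0.977). PAP2 was closest to AT3G27570 (0.983), the sinapate glucosyltransferase gene UGT84A2 (0.975) and the purple acid phosphatase gene PAP10 (0.974). MYB113 stood beside TIFY7 (0.971), YLS5 (0.968) and JAZ5 (0.968), of which TIFY7 and JAZ5 encode jasmonate repressors. Within groups MYB113 ranged from 0 to 1.91 FPKM in Col-0 at 9 h and from 0.495 to 2.16 FPKM in tpt-2 at 18 h. Its r values therefore also follow single libraries and are not a reading of genotype or time. GL3 was nearest to AT4G17480 (0.978), AAE12 (0.977) and AT3G50280 (0.977). EGL3 had AT5G19760 (0.951), the wall enzyme gene XTH32 (0.944) and EMB1144 (0.943). TTG1 had the isocitrate dehydrogenase gene cICDH (0.961), LUL2 (0.957) and AT1G53190 (0.955). Between the activators, r was 0.971 for PAP2 with TT8, 0.962 for PAP1 with TT8 and 0.934 for PAP1 with PAP2, and it was below 0 for TTG1 with each of the other 6.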

How the data were processed

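Leaf RNA was measured in 12 libraries, grouped by genotype and hours of strong light from the sample titles. The authors deposited 1 FPKM value per gene and library, and 0 columns were left unused. HISAT2 2.0.5, featureCounts 1.5.0-p3, DESeq2 1.20.0, CASAVA and the build TAIR10 are named in the submitters' processing notes, with no role given. Per the labels' protocols, the libraries were poly-A selected and strand-marked with dUTP.

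FPKM values are not counts, so log2(FPKM + 1) of 17585 genes (mean over all libraries 1 FPKM or more) was fitted in limma 3.58.1 (R 4.3.3, eBayes with trend) with the 4 groups as 1 factor. P-values are two-sided with Benjamini-Hochberg adjustment over all genes tested, intervals cover 95%, and the fold change of low genes is understated on this scale. Deposited values were not rescaled. The fit was tested on simulated counts. Depth was recovered from steps between low values and the mean transcript length of TAIR10.1: 1 depth per library made 99.47% or more of the values worth 1 to 20 fragments whole within 0.05. Of the table's identifiers, 32548 were found in that annotation. No replicate pair shared a value above 0. Fragment intervals are exact binomial and cover counting error only. Alternatives were a pseudocount of 0.1, no filter or 5 FPKM, median-ratio and quantile scaling, only the groups compared, a replicate block, and leaving out each library. Python 3.11.15 with pandas 2.3.3, scipy 1.17.1 and Biopython 1.88 did the rest.

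The genes and lists were chosen with earlier results of these data known. Genes named are the 8 activators, per list the 3 called at 9 h and the 1 called at 18 h with the largest absolute log2 fold change, the 3 most similar genes per activator, and TPT. GL1, MYB23, F3H and HY5 were added after their values were seen.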

Additional observations from a re-analysis of the deposited data

Results flagged for a closer look

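The genotype effect differed between the time points, by the test of the difference itself, for 2 of the 7 genes tested. Over all genes tested the share was 4.78%, or 2.43% in the positive direction. For PAP1 the effect at 18 h minus that at 9 h was 2.02 on the log2 scale (limma adjusted p 0.00341). For TT8 it was 1.25 (limma adjusted p 0.0204), which missed the threshold in 3 of the 12 fits without 1 library (limma adjusted p up to 0.0585). No group held more than 3 libraries, so single libraries were not screened for outlying values.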

How the results depend on the processing

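Over the alternatives, 597 of 643 recomputed log2 fold changes of the activators kept their direction and their side of the threshold, 33 lost a call, 7 gained one and 6 turned sign. The sign turned for TTG1 at 18 h under median-ratio scaling (-0.024) and quantile normalization (-0.032), and, over the fits that left out 1 library, for MYB113 at 18 h (-0.40 to 0.14), at 9 h (-0.72 to 0.054) and in the interaction (-0.27 to 0.58), and for GL3 at 18 h (-0.40 to 0.24). None of these was called. Over all genes tested, the 18 h median was -0.016 after quantile normalization, against 0.094 as deposited. With a minimum of 5 FPKM, 3 activators were called between 18 h and 9 h in tpt-2, against 6, because MYB113, GL3 and EGL3 were then not tested. Leaving out 1 library gave 1 to 2 called activators at 18 h, 4 to 6 at 9 h, 1 to 2 in the interaction, and 4 to 6 (tpt-2) and 3 to 5 (Col-0) between the times. Over all 17585 genes tested it gave 107 to 577 calls at 18 h, against 507, and 2403 to 4049 at 9 h, against 3917. The interaction had 258 to 1177 calls, against 841. Between the times there were 2966 to 4326 calls in tpt-2, against 4112, and 3706 to 5138 in Col-0, against 5042. Same-numbered libraries deviated together with correlations from -0.261 (replicate 2 at 9 h) to 0.135 (replicate 1 of Col-0 between the times). Differently numbered ones reached 0.2335 (tpt-2 replicate 3 with Col-0 replicate 2 at 9 h). Deviations within a group of 3 sum to 0 and so depend on each other, and these correlations cannot decide whether libraries were paired. With a replicate block, EGL3 at 9 h (limma adjusted p 0.0559) and MYB113 between the times in tpt-2 (0.0792) no longer passed, nor did PIF4 at 18 h (0.0547) or 9 h (0.0555), which left 4 activators called at 9 h and 5 between the times in tpt-2. The causes of the other changes were not tested. Depth limits MYB113, MYB114 and, in tpt-2 at 9 h, PAP2 and TT8.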
